A study of Rattus norvegicus with 15 samples.

Results

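The genes described here encode the initiation and elongation factors of cytosolic protein synthesis, followed by RNA sequencing through zinc exposure in a rat cell line. Members were all genes of the deposited count table whose symbol begins with Eif1 to Eif6 or with Eef1 or Eef2, without the Eif2ak kinases and Eef1e1. This rule gave 54 of the 16832 genes in the table, and all 54 passed the filter on low counts. The cells were Odora cells, an established rat line labelled as olfactory neuron and used undifferentiated, and the only line in the study. Controls carry no zinc and no time in the labels. Zinc gluconate, a soluble zinc salt, was given at 100 µM for 6, 12 or 24 h and at 200 µM for 6 h. Each of the 5 groups held 3 libraries of total RNA, numbered 1 to 3. Whether the numbers stand for separate cultures is not in the labels, and the p-values cover no more than the spread of such libraries, which may be technical.

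Protein synthesis starts when a small ribosomal subunit carrying eIF1, eIF1A, eIF3 and a complex of eIF2 with the initiator transfer RNA is brought to the capped end of a messenger RNA by eIF4F and scans to a start codon. The supply of active eIF2 is set by its exchange factor eIF2B, which is inhibited when the alpha subunit of eIF2 is phosphorylated under stress, and the supply of cap-binding eIF4E is limited by the 4E-binding proteins, which the mTOR pathway controls. Elongation then depends on eEF1A, which delivers aminoacyl transfer RNAs, on its exchange complex eEF1B, on eIF5A and on the translocase eEF2. Amounts of messenger RNA were measured here, not protein, phosphorylation or rates of translation.

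Each library held 10.3 to 35.2 M (mega) counts in all. A floor of 3 counts came to 0.0853 to 0.29 CPM, the counts of a gene per mega of counts in its library, and it covers counting error only. Mt1, a metallothionein that binds zinc, stood at 1340 to 1480 CPM after 6 h at 100 µM, against 36.8 to 49.2 CPM in controls. Among markers of mature olfactory neurons, Cnga2 and Rtp1 were at 0 in all 15 libraries, and the summed level of the 5 markers in the table was 21.1 to 27.6 CPM, of which Adcy3 made up 20.9 to 27.3 CPM. The 8 markers of immature neurons and precursors summed to 122 to 141 CPM, with Ncam1 at 86 to 105 CPM and Neurog1 and Gap43 at 0 throughout. The 5 fibroblast markers summed to 5500 to 8780 CPM, nearly all from collagens. Col1a1 stood at 3340 to 4630, Col3a1 at 1030 to 3440 and Col1a2 at 840 to 1130 CPM. Pdgfra was at 4.8 to 27.9 CPM and Dcn at 0.143 to 3.49 CPM. Sums of the marker lists were 9.84 to 16.7 CPM for glia, 4.42 to 9.37 CPM for leukocytes and 0 to 0.348 CPM for sustentacular and basal epithelium. Libraries of the 24 h label and of the 200 µM label matched across labels: library 1 of one with library 3 of the other, 2 with 2 and 3 with 1. The chi-square of their counts divided by its degrees of freedom was 1.36 to 1.42 for these 3 pairs, against at least 3.28 for the other 6 pairs across the labels and 3.46 to 18.1 for pairs within them. The 2 labels, called the matching labels from here on, therefore may not stand for separate treatments, and values of both are given side by side, not as support for each other. A set of 6 heart muscle genes summed to 106, 26.7 and 107 CPM in the control libraries and to 49.4 CPM in library 1 of the 6 h group, against 0.156 to 0.608 CPM in the other 11 libraries. The part of these transcripts in the results was not tested beyond a fit with a term for those 4 libraries. That fit is given where it ended or added a call against control. Since all controls carry the term, it is estimated only from 6 h library 1 against 6 h libraries 2 and 3. Ratios to control with the term are thus shifted by any difference of that 1 library, of whatever kind.

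More of the factors were called against control under the 24 h and 200 µM labels than after 6 or 12 h at 100 µM. The same held for all genes tested. The share of members called was above that of all genes at 6 and 12 h and below it under the 24 h and 200 µM labels. After 6 h, 11 of the 54 members passed an adjusted p of 0.05 in edgeR's quasi-likelihood test, beside 17.2% of all 10575 genes tested. Of these members 2 were higher, beside 9.1% of all genes, and 9 were lower, beside 8.1%. The 12 h group had 2 higher and 2 lower members, beside 3.36% and 2.97% of all genes, which makes 4 of 54 beside 6.33%, and none of these 4 was called without control library 1 or without 12 h library 1. Under the 24 h label 15 members were higher and 10 lower, beside 29.7% and 31.3% of all genes, so that 25 of 54 were called beside 61%. Under the 200 µM label the same 15 were higher and the same 10 lower, beside 29.4% and 31.1%, with 25 called beside 60.5%. A test over all 5 groups called 32 of 54, beside 66.4% of all genes. These comparisons share their control libraries. The median log2 ratio of the members was -0.07 after 6 h, -0.02 after 12 h, 0.06 at 24 h and 0.07 at 200 µM, beside medians over all genes of 0, 0, -0.02 and -0.02. The members called were thus 20.4%, 7.41%, 46.3% and 46.3% of the set, and the shares of the set and of all genes were not tested against each other. With the term for the 4 libraries with heart transcripts, 9, 0, 13 and 13 members were called. These counts include members not called without the term, Eef1g at 6 h and Eef1a2 at 24 h and 200 µM. The median standard error at 24 h was 0.167 with the term, against 0.094 without it. A call lost with the term is therefore given with its ratio, since the ratio can be as large as before.

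Scaling set the direction of part of these values. The ratios use TMM factors, which take the bulk of genes as level. The members together took 2.34% to 2.38% of counts under the 24 h and 200 µM labels, against 2.67% to 2.93% in controls. With library totals in place of TMM, the median of all genes moved to -0.40 in both comparisons, and 5 members were called higher and 37 lower in each. Eif1, Eif1ad, Eif3g, Eif4e2 and Eif5a were called higher under both scalings, and all 10 lower members were called lower under both. The other 10 higher members had ratios of 0.00 or below with library totals, so their TMM ratios say only that they stood above the median gene. Some of them were called lower by edgeR with library totals. These were Eif3b, Eif3d and Eif4h at 24 h (adjusted p 0.0303, 0.0418 and 0.00367). At 200 µM they were Eef1b2, Eif3d and Eif4h (adjusted p 0.0481, 0.0331 and 0.00377).

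**Figure D1:**
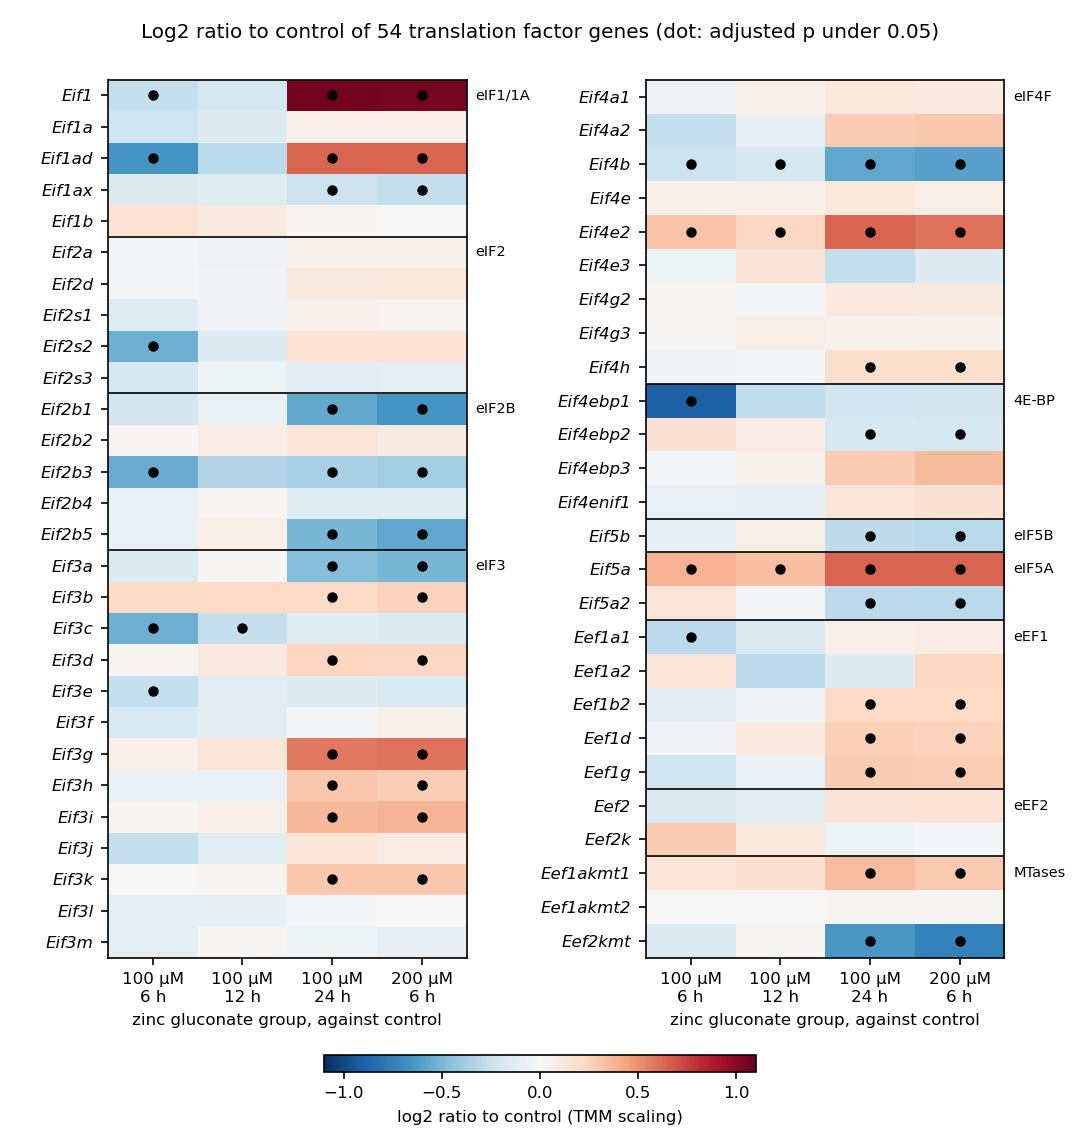
Log2 ratio to control (colour, TMM scaling) of the 54 factor genes in rows, ordered by complex, in the 4 zinc groups in columns, with dots for adjusted p under 0.05 in edgeR. The columns for 24 h and 200 µM carry the same 25 dots, of which 10 of the 15 higher ones lose their positive ratio with library totals, and the 6 h column carries 11.

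**Figure D2:**
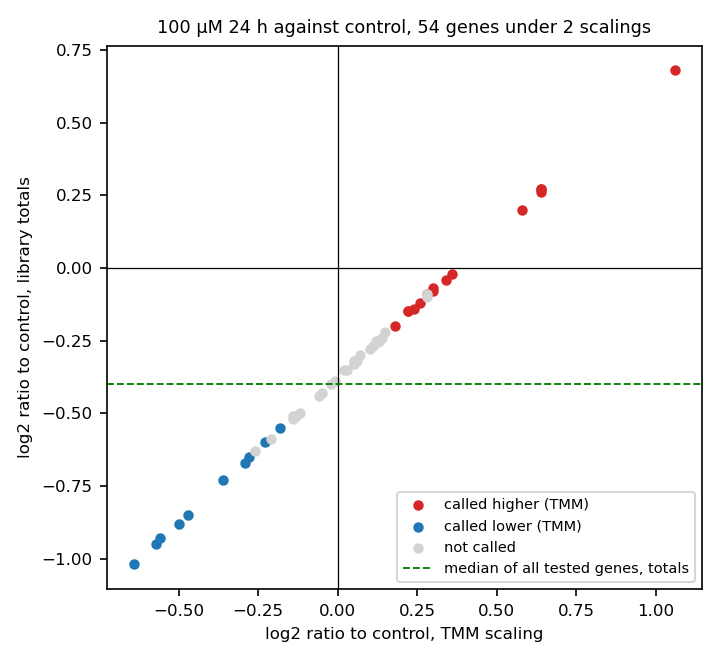
Log2 ratio to control of each of the 54 genes at 24 h with TMM factors (x axis) against the ratio with library totals (y axis), coloured by the TMM call. All points lie below the diagonal, the dashed line at -0.40 is the median of all tested genes with library totals, and 5 of the 15 genes called higher stay above 0.

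The factors that set start codon choice held the member with the highest ratio to control in the set. Eif1, which keeps the scanning ribosome open until a start codon is met, was somewhat below its control level in the first 12 h and stood far above it under the matching labels. Its CPM in libraries 1, 2 and 3 was 681, 582 and 601 in controls, 526, 516 and 527 after 6 h, 569, 531 and 538 after 12 h, and 1340, 1290 and 1240 after 24 h at 100 µM. Under the 200 µM label it was 1260, 1250 and 1330 CPM. All 6 libraries of the matching labels stood above all others, and all libraries of the 6 h and 12 h groups stood below the controls. Eif1 rose 2.08-fold at 24 h (log2 1.06 ± 0.06 SE, adjusted p 9.2e-11, n = 3 each) and 2.07-fold at 200 µM (1.05 ± 0.06, adjusted p 1.09e-10), and it fell at 6 h (log2 -0.25 ± 0.06, adjusted p 0.012). The 6 h call ended with the heart-transcript term, at a ratio of -0.24 (adjusted p 0.129), and without control library 1, at -0.18 (adjusted p 0.085). The 12 h ratio of -0.19 was not called, except with library totals and with the replicate block. RefSeq lists 9 further genes or pseudogenes named after Eif1, so reads may be shared among them.

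Eif1ad, a protein with an eIF1A-like domain, moved both ways. Its levels were 76.6, 55.5 and 59.3 CPM in controls, 39.5, 42.2 and 40.7 after 6 h, 54, 50.8 and 50.6 after 12 h, and 103, 99.7 and 95.6 after 24 h, with 96.6, 98.7 and 102 under the 200 µM label. The 6 h libraries lay below every control and those of the matching labels above every control. It fell at 6 h (log2 -0.65 ± 0.09, adjusted p 6.91e-05) and rose at 24 h (0.64 ± 0.09, adjusted p 4.36e-06) and at 200 µM (0.64 ± 0.09, adjusted p 5.38e-06). These 3 calls held under every alternative. The eIF1A genes themselves showed no such pattern. Eif1ax, the X-linked eIF1A gene, had ratios of -0.23 and -0.26 under the 24 h and 200 µM labels, which passed the test (adjusted p 0.0319 and 0.0182), but not with the heart-transcript term (-0.04 and -0.06) or without control library 1 or 3 or library 2 of the label. Eif1a and the eIF1 paralog Eif1b passed no test, with ratios between -0.22 and 0.15 in the 4 comparisons with control.

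Promoter windows were looked up for the members in RefSeq (build GRCr8), each holding 250 bases before and 50 after an annotated start site. A window was found for 48 of the 54, with 51 windows in all, and the members without one are Eef1d, Eif3e, Eif3h, Eif4b, Eif4e3 and Eif4ebp1. The 250 bases upstream of Eif1, Eif1ad, Eif4e2 and Eif5a are shown because these genes rose under the matching labels with either scaling and changed at 6 h too. They lie at chr10:85746887-85747136 on the plus strand, chr1:212103465-212103714 on the plus strand, chr9:95333775-95334024 and chr9:95334136-95334385 on the plus strand for the 2 annotated starts of Eif4e2, and chr10:55143222-55143471 on the minus strand. Capitals mark matches on either strand to the cores of the metal response element (TGCACNC or TGCGCNC), the antioxidant response element (TGACNNNGC), the heat shock element (GAANNTTC) and the amino acid response element (TGATGNAA).
Eif1: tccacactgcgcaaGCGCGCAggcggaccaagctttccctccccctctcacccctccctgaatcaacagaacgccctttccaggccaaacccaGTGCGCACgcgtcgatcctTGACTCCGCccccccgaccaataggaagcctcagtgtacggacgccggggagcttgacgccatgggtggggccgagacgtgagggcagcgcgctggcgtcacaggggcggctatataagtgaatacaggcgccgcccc
Eif1ad: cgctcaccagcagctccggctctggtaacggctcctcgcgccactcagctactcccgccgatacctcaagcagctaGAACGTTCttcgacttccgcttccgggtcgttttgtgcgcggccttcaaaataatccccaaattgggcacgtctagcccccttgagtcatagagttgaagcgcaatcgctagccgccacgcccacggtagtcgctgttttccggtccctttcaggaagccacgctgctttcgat
Eif4e2, first start: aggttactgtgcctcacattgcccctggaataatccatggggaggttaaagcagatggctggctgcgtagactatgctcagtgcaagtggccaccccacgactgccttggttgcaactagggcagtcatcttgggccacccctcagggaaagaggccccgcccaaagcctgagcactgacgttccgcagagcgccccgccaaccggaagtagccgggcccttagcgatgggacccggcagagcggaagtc
Eif4e2, second start: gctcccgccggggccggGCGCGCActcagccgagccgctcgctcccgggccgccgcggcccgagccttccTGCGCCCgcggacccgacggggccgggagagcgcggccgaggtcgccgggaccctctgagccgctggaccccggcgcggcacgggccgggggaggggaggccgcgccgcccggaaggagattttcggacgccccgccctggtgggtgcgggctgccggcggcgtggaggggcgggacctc
Eif5a: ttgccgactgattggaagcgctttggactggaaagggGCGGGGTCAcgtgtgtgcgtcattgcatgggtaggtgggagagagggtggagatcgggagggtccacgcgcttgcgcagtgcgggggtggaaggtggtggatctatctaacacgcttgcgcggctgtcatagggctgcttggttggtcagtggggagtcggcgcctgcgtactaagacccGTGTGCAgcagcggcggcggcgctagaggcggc
The Eif1 window holds 3 metal response cores, at -236, -157 and -156 from the start site, of which the last 2 overlap and share a run of capitals, and an antioxidant core at -138. Eif1ad holds a heat shock core at -174. Of the windows of Eif4e2 the first holds none of these cores upstream of the start, and the second holds metal response cores at -233 and -180. Eif5a holds an antioxidant core at -213 and a metal response core at -33. Metal response cores lay in 47.1% of the members' windows, against 24.2% of all 33469 windows of this length and 27.6% of the 21851 windows of protein-coding genes. The members' windows were richer in G and C, with a median of 60.3% against 51.7% of all windows. Antioxidant cores lay in 17.6% of the members' windows, against 12.1% of all and 12.5% of protein-coding windows. Heat shock cores lay in 3.92% against 8.59% and 7.97%, and amino acid response cores in 3.92% against 3.98% and 3.35%. Of the members with a window, a metal response core lay in 7 of the 13 called higher at 24 h, in 4 of the 9 called lower and in 13 of the 26 not called. A match is a description of the letters and not of binding.

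Among the eIF2 genes, whose product carries the initiator transfer RNA, the alpha subunit gene Eif2s1 passed no test. Its levels were 191, 157 and 188 CPM in controls, 174, 148 and 167 after 6 h, 188, 168 and 170 after 12 h, 192, 159 and 205 after 24 h, and 199, 162 and 187 under the 200 µM label. All groups overlapped, and the ratios to control ran from -0.13 to 0.05. Eif2s2, the beta subunit, was called lower than control after 6 h and in no other group. It had 256, 217 and 244 CPM after 6 h at 100 µM, against 386, 281 and 379 CPM in controls, with no overlap (log2 -0.54 ± 0.13, adjusted p 0.0095). The heart-transcript term took this call away (-0.44, adjusted p 0.159), as did leaving out control library 1 (-0.46, adjusted p 0.0608). Levels of Eif2s2 at the other points were 329, 306 and 316 CPM at 12 h, 415, 323 and 423 at 24 h and 436, 319 and 402 at 200 µM, within or across the range of the controls. Eif2s3, the GTP-binding gamma subunit, and Eif2a and Eif2d, which can carry initiator transfer RNA without eIF2, passed no test, with ratios to control of -0.19 to 0.12.

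The eIF2B subunits did not move as one. The exchange factor has a catalytic part, gamma and epsilon (Eif2b3 and Eif2b5), and a regulatory part, alpha, beta and delta (Eif2b1, Eif2b2 and Eif2b4). Under both matching labels 3 of the 5, Eif2b1, Eif2b3 and Eif2b5, were lower, with either scaling, beside 31.3% and 31.1% of all genes called lower at 24 h and 200 µM, and Eif2b2 and Eif2b4 were not called. The lower genes thus came from both parts of the complex.

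Eif2b5 had 85.8, 85.7 and 82 CPM under the 24 h label and 82.8, 81.8 and 78.1 CPM under the 200 µM label, against 116, 122 and 122 CPM in controls. It had 112, 111 and 120 CPM after 6 h and 131, 127 and 119 CPM after 12 h, which overlapped the controls. Its fall was by 0.50 ± 0.06 on the log2 scale at 24 h (adjusted p 5.51e-07) and by 0.57 ± 0.06 at 200 µM (adjusted p 1.36e-07). For Eif2b1 the levels were 39.4, 38.9 and 35 CPM at 24 h and 34.1, 36.6 and 35.1 CPM at 200 µM, against 56.9, 53.8 and 56 CPM in controls, with log2 ratios of -0.56 ± 0.07 (adjusted p 3.13e-06) and -0.65 ± 0.08 (adjusted p 5.21e-07). At 6 h it had 48.6, 46.4 and 50.4 CPM and at 12 h 56.5, 54 and 46.8 CPM, neither of them called. Eif2b1 overlaps Gtf2h3 in the annotation, and without a stated strand setting reads of the pair may be shared.

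Eif2b3 was the subunit that was already lower at 6 h. It stood at 71.1, 50.9 and 57.6 CPM in controls, 39.8, 40.2 and 42.3 after 6 h, 49.7, 49.7 and 44 after 12 h, 46.9, 48.7 and 44.4 after 24 h, and 49.2, 45.7 and 43.2 under the 200 µM label. Every zinc library lay below every control. The ratio was -0.55 ± 0.10 at 6 h (adjusted p 0.000561), -0.32 ± 0.10 at 12 h (adjusted p 0.0536, not called), -0.36 ± 0.10 at 24 h and -0.38 ± 0.10 at 200 µM (adjusted p 0.00351 and 0.00247). With the heart-transcript term the calls at 24 h and 200 µM were lost while the ratios were -0.41 and -0.43 (adjusted p 0.0843 and 0.07). Eif2b2 had 102, 104 and 101 CPM in controls, 101, 106 and 107 after 6 h, 112, 112 and 102 after 12 h, 111, 126 and 100 after 24 h, and 101, 122 and 109 at 200 µM, with overlap throughout and ratios of 0.02 to 0.13. Eif2b4 had ratios of -0.13 to 0.02.

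The 13 measured subunit genes of eIF3, the scaffold that joins the small ribosomal subunit to eIF4F, split under the matching labels. Eif3b, Eif3d, Eif3g, Eif3h, Eif3i and Eif3k were called higher, beside 29.7% and 29.4% of all genes at 24 h and 200 µM. Of these only Eif3g kept a positive ratio with library totals. Eif3a was called lower with both scalings, beside 31.3% and 31.1% of all genes called lower with TMM. With the heart-transcript term Eif3g and Eif3h alone of the 6 were still called under both labels. The ratios of the other 4 with the term were 0.26 and 0.29 for Eif3b and 0.32 in both for Eif3k, against 0.18 and 0.17 for Eif3d and 0.18 and 0.20 for Eif3i. Eif3c, Eif3e, Eif3f, Eif3j, Eif3l and Eif3m were not called. Eif3b, Eif3g and Eif3i form a mobile module of the complex and were all in the higher set, but so were Eif3d, Eif3h and Eif3k outside it. Eif3a, the core subunit to which the module is tethered, was the lower one.

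Eif3g, an RNA-binding subunit of that module, had 159, 176 and 166 CPM at 24 h and 164, 176 and 168 CPM at 200 µM, against 113, 111 and 111 CPM in controls. After 6 h it had 113, 116 and 122 CPM and after 12 h 131, 122 and 115 CPM, which were not called. The libraries of the matching labels stood clear of all others, at log2 ratios of 0.58 ± 0.06 (adjusted p 1.89e-07) and 0.60 ± 0.06 (adjusted p 1.41e-07). Eif3i rose by less, with ratios of 0.36 ± 0.08 and 0.37 ± 0.08 (adjusted p 0.000572 and 0.000414), which became -0.02 and 0.00 with library totals. Eif3b had ratios of 0.22 ± 0.07 and 0.25 ± 0.07 under the matching labels and, without passing the test, of 0.20 after 6 h and 0.22 after 12 h. The values under these labels became -0.15 and -0.13 with library totals, and the one at 24 h was then called lower (adjusted p 0.0303).

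Eif3a, the largest subunit and a base of the whole assembly, went the other way. It had 646, 557 and 607 CPM in controls, 557, 538 and 538 after 6 h, 625, 590 and 602 after 12 h, 443, 390 and 471 after 24 h, and 453, 379 and 451 under the 200 µM label. The libraries of the matching labels lay below every other library. The ratios were -0.47 ± 0.08 (adjusted p 4.63e-05) and -0.50 ± 0.08 (adjusted p 2.79e-05), and these calls held under every alternative. Eif3c, which pairs with Eif3a in the core, was lower at 6 and 12 h and was not called under the matching labels. Its levels were 735, 622 and 645 CPM in controls, 471, 432 and 472 after 6 h, 583, 558 and 539 after 12 h, 609, 633 and 581 after 24 h, and 580, 617 and 604 at 200 µM. The 6 h libraries stood lowest of all and the 12 h ones lay between them and the controls. Eif3c fell by 0.54 ± 0.07 at 6 h (adjusted p 1.95e-05) and by 0.25 ± 0.07 at 12 h (adjusted p 0.032), a call lost in 6 of 17 alternatives, and its ratios of -0.13 and -0.15 under the matching labels did not pass. The heart-transcript term was among those 6, with a 12 h ratio of -0.19 (adjusted p 0.615).

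The other subunits had smaller ratios. Eif3h rose by 0.30 ± 0.06 and 0.27 ± 0.06, Eif3k by 0.30 ± 0.09 in both and Eif3d, which can itself bind caps, by 0.24 ± 0.07 and 0.23 ± 0.07 at 24 h and 200 µM, and with library totals all of these were between -0.15 and -0.07. Eif3d was then called lower under both labels (adjusted p 0.0418 and 0.0331). Eif3e was lower at 6 h (-0.26 ± 0.08, adjusted p 0.0315), a call that ended in the fit of the 6 libraries alone, with the heart-transcript term (-0.14, adjusted p 0.48) and without any one of 4 libraries (control 1 or 3, 6 h library 2 or 3). Ratios of Eif3f, Eif3j, Eif3l and Eif3m to control ran from -0.26 to 0.13, and none was called. In Eif3i, Eif3j and Eif3k the annotation shows overlap with another gene, so shared reads are possible there.

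**Figure D3:**
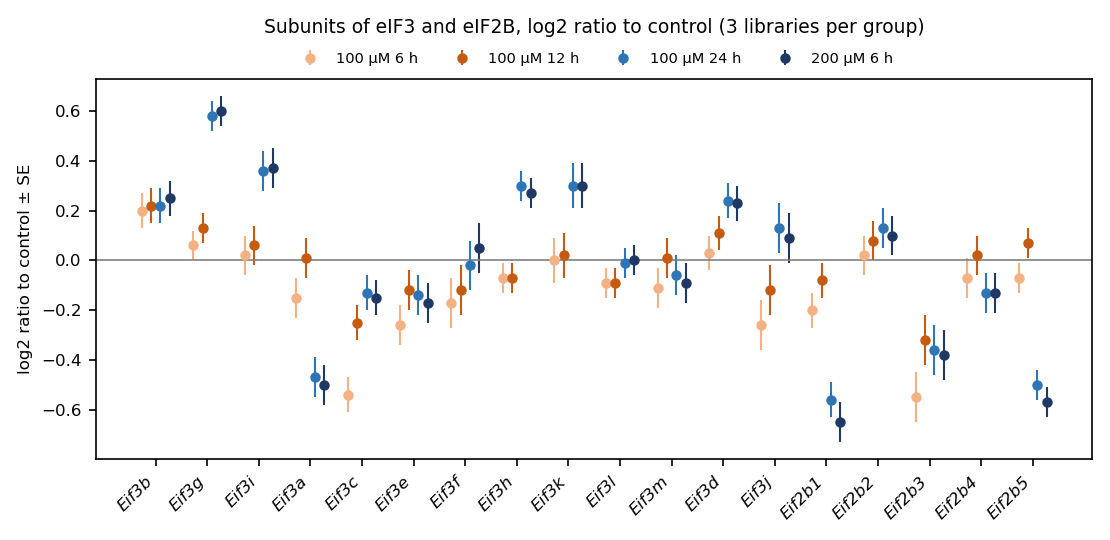
Log2 ratio to control ± SE (y axis, TMM scaling) of the 13 eIF3 and 5 eIF2B subunit genes in the 4 zinc groups, 3 libraries each. Eif3g stands highest and Eif2b1 lowest under the 24 h and 200 µM labels, and with library totals the positive ratios of Eif3b, Eif3d, Eif3h, Eif3i and Eif3k at 24 h turn negative.

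Among the cap-binding genes, canonical Eif4e passed no test and Eif4e2 was called higher in every zinc group, though at 12 h under a minority of the alternatives. Eif4e, the cap-binding subunit of eIF4F, had 168, 144 and 170 CPM in controls, 173, 155 and 170 after 6 h, 173, 159 and 172 after 12 h, 185, 155 and 182 after 24 h, and 181, 146 and 178 under the 200 µM label. All groups overlapped, and ratios were 0.05 to 0.12. RefSeq lists 10 further genes or pseudogenes named after Eif4e. Eif4e2, a cap-binding paralog known in mammals for repressing the messages it binds, had 42.2, 40.7 and 43.8 CPM in controls, 53.4, 52.4 and 51.6 after 6 h, 52, 47.5 and 48.9 after 12 h, 61.6, 69.7 and 66.2 after 24 h, and 64.3, 63.3 and 64.3 at 200 µM. Every zinc library stood above every control, and the matching labels above the 6 h and 12 h groups at 100 µM. With library totals the ratio of 200 µM to 100 µM at 6 h was -0.06 (adjusted p 0.387) and that of 24 h to 12 h was 0.08 (adjusted p 0.257).

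For Eif4e2 the ratios were 0.31 ± 0.06 at 6 h (adjusted p 0.00184), 0.23 ± 0.06 at 12 h (adjusted p 0.0384), 0.64 ± 0.06 at 24 h (adjusted p 5.7e-08) and 0.60 ± 0.06 at 200 µM (adjusted p 1.69e-07). The 12 h call ended under 10 of 17 alternatives, while the other 3 held under all. Among those 10 was the heart-transcript term, with a 12 h ratio of 0.27 (adjusted p 0.388). Eif4e3, another family member, at 6.95 to 11.3 CPM, passed no test against control, with ratios of -0.26 to 0.14.

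Eif4b, a cofactor of the eIF4A helicase, was called lower in every zinc group, though at 12 h under a minority of the alternatives. Its levels were 394, 385 and 361 CPM in controls, 312, 336 and 315 after 6 h, 337, 336 and 326 after 12 h, 250, 261 and 257 after 24 h, and 244, 253 and 252 under the 200 µM label. No zinc library reached the lowest control, and the matching labels lay below the 6 h and 12 h groups at 100 µM. The ratios were -0.24 ± 0.06 at 6 h (adjusted p 0.00483), -0.19 ± 0.06 at 12 h (adjusted p 0.0475), -0.57 ± 0.06 at 24 h (adjusted p 5.73e-08) and -0.60 ± 0.06 at 200 µM (adjusted p 2.62e-08). The 12 h call was lost in 11 of 17 alternatives, and the other 3 in none. Among those 11 was the heart-transcript term, with a 12 h ratio of -0.25 (adjusted p 0.336). Eif4h, which shares this helicase role, had ratios of 0.18 ± 0.06 at both matching labels (adjusted p 0.019 and 0.0201). With library totals each was -0.20 and was called lower (adjusted p 0.00367 and 0.00377). The higher calls of Eif4h were lost with the heart-transcript term (0.22 under both labels, adjusted p 0.143 at 24 h and 0.145 at 200 µM). They were also lost without control library 3 (0.16 under both labels, adjusted p 0.064 at 24 h and 0.066 at 200 µM) or library 2 of the label (0.13 under both, adjusted p 0.108 in each).

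The helicase genes were not called against control. Eif4a1 had 980, 861 and 949 CPM in controls, 919, 861 and 929 after 6 h, 1040, 939 and 933 after 12 h, 1070, 965 and 1010 after 24 h, and 1020, 946 and 1050 at 200 µM. Its groups overlapped throughout, with ratios of -0.04 to 0.12. Eif4a2 had 325, 249 and 277 CPM in controls, 242, 221 and 253 after 6 h, 268, 251 and 282 after 12 h, 381, 269 and 383 after 24 h, and 404, 265 and 375 at 200 µM. Library 2 was the lowest in every group and stood furthest from the other 2 under the matching labels. The ratio of Eif4a2 at 24 h was 0.28. It was called with the replicate block at 6 h, 24 h and 200 µM, and without library 2 of the label at 24 h and 200 µM. At 200 µM it was also called without control library 1. The scaffold genes Eif4g2 and Eif4g3 had ratios of -0.02 to 0.11. Eif4g1, Eif5 and Eif6 were not analysed here.

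Eif4ebp1, which encodes the mTOR-regulated inhibitor of eIF4E, had the lowest ratio of the set at 6 h. Its levels were 197, 160 and 176 CPM in controls, 94.1, 92.1 and 99.6 after 6 h, 163, 148 and 130 after 12 h, 146, 174 and 141 after 24 h, and 138, 179 and 148 under the 200 µM label. The 6 h libraries lay far below all others, and the other zinc groups overlapped the controls. The mean was 95.3 ± 3.9 CPM at 6 h and 178 ± 18.6 CPM in controls (SD, n = 3 each), a log2 ratio of -0.90 ± 0.11 (adjusted p 1.79e-05) that passed under all 17 alternatives. The other ratios of -0.27, -0.21 and -0.20 at 12 h, 24 h and 200 µM did not pass (adjusted p 0.146, 0.0943 and 0.122).

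The other 4E-binding genes had smaller ratios. Eif4ebp2 had ratios of -0.18 ± 0.07 and -0.19 ± 0.07 under the matching labels (adjusted p 0.0354 and 0.0292), calls that were lost in 8 of 16 alternatives at 24 h and in 7 of 16 at 200 µM. The heart-transcript term ended both, at -0.12 for 24 h (adjusted p 0.475) and -0.13 for 200 µM (adjusted p 0.439). Eif4ebp3, at 5.13 to 8.34 CPM, and Eif4enif1, the transporter that carries eIF4E into the nucleus, passed no test against control, with ratios of -0.09 to 0.35.

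**Figure D4:**
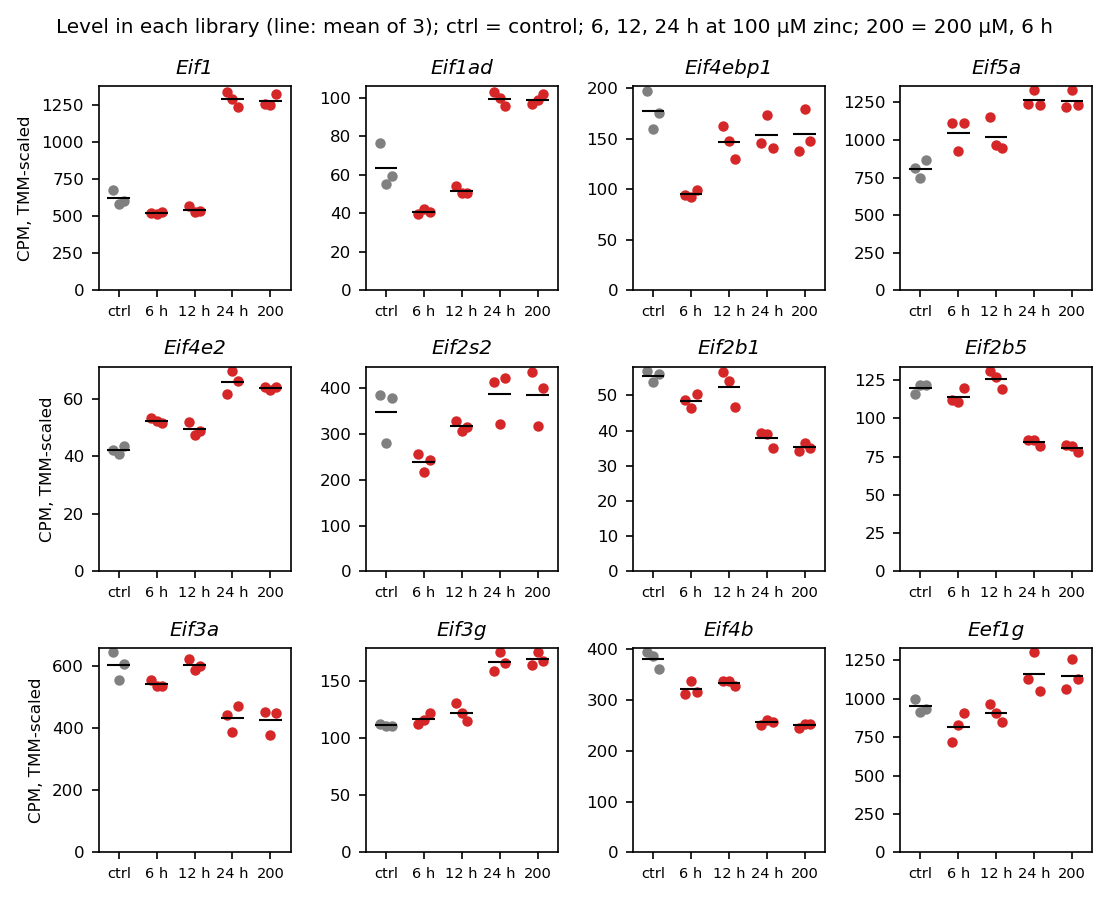
Level in CPM (y axis, TMM-scaled) of 12 of the genes in each of the 15 libraries, with a line at the mean of 3; controls are grey and zinc groups red. Eif4ebp1 dips at 6 h alone, Eif1 and Eif1ad stand above all other groups at 24 h and 200 µM, and Eif4b, Eif2b1, Eif2b5 and Eif3a stand below.

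At the junction of initiation and elongation, Eif5a rose in every zinc group. eIF5A carries the amino acid hypusine and relieves ribosomes at sequences that are hard to translate. Its levels were 816, 749 and 866 CPM in controls, 1110, 928 and 1110 after 6 h, 1150, 965 and 948 after 12 h, 1240, 1330 and 1230 after 24 h, and 1220, 1330 and 1230 at 200 µM. Every zinc library stood above every control. The ratios were 0.38 ± 0.08 at 6 h (adjusted p 0.00484), 0.33 ± 0.08 at 12 h (adjusted p 0.0248), 0.64 ± 0.09 at 24 h (adjusted p 2.99e-06) and 0.64 ± 0.09 at 200 µM (adjusted p 3.49e-06), and all but the 12 h call, which was lost in 4 of 17, held under every alternative. The heart-transcript term was one of the 4 that ended the 12 h call, with a ratio of 0.46 (adjusted p 0.253). Eif5a overlaps Gps2 in the annotation, so shared reads are possible.

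Its paralog Eif5a2 was lower under the matching labels, by 0.29 ± 0.11 and 0.30 ± 0.11 on the log2 scale (adjusted p 0.0233 and 0.0232), and both calls were lost with the heart-transcript term, at -0.04 in each, and without control library 3 or library 2 of the label, and at 24 h also without library 1. Eif5b, the GTPase that joins the ribosomal subunits, fell by 0.28 ± 0.07 at 24 h and by 0.30 ± 0.07 at 200 µM (adjusted p 0.00148 and 0.000855), and these calls too were lost with that term, with ratios of -0.20 and -0.22 (adjusted p 0.198 and 0.156).

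The elongation factor genes showed small ratios throughout. Eef1a1, the main eEF1A gene, had 8640, 7850 and 7890 CPM in controls, 6210, 6700 and 7020 after 6 h, 7580, 7260 and 6970 after 12 h, 8430, 8880 and 8320 after 24 h, and 8350, 8910 and 8500 under the 200 µM label. The 6 h libraries lay below every control, and those of the matching labels overlapped the controls. Eef1a1 fell at 6 h (-0.29 ± 0.07, adjusted p 0.0056), a call that held under all 17 alternatives, and its other ratios of -0.16, 0.07 and 0.08 did not pass. RefSeq lists 22 further genes or pseudogenes named after Eef1a1, the most of any member. Eef1a2, the paralog known from neurons and muscle, was at 0.601 to 2.08 CPM, on 8 to 80 counts per library. It passed no test with all libraries and without the heart-transcript term. With that term it was called at 24 h and 200 µM against control and for 200 µM against 100 µM at 6 h. The last was also called without 6 h library 1, the library on which the term rests and in which Eef1a2 stood highest. Its libraries were 1.28, 1.46 and 1.07 CPM in controls, 2.08, 0.784 and 0.601 after 6 h, 0.998, 1.32 and 0.774 after 12 h, 1.13, 1.27 and 1.04 after 24 h, and 1.75, 1.87 and 0.944 at 200 µM.

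The 3 subunit genes of the exchange complex of eEF1A, Eef1b2, Eef1d and Eef1g, had ratios of 0.22 ± 0.08, 0.26 ± 0.08 and 0.28 ± 0.09 at 24 h and of 0.22, 0.25 and 0.27 at 200 µM. All 6 were called higher, beside 29.7% and 29.4% of all genes called higher at 24 h and 200 µM. With library totals all 6 were -0.16 to -0.09, and Eef1b2 was then called lower at 200 µM (adjusted p 0.0481). With the heart-transcript term Eef1b2 alone of the 3 was still called, at 0.36 and 0.35, and the ratios were 0.18 and 0.16 for Eef1d and 0.01 and 0.00 for Eef1g. The calls of Eef1b2 were lost without control library 2, at 0.17 for 24 h (adjusted p 0.0877) and 0.16 for 200 µM (adjusted p 0.0989). At 200 µM its call was also lost without library 3 of the label (0.20, adjusted p 0.0684). Leaving out a library ended neither call of Eef1d. Eef1g had 1130, 1300 and 1050 CPM at 24 h, against 1000, 915 and 933 CPM in controls, so that library 2 carried much of the difference. Without that library the ratio was 0.20 (adjusted p 0.0779). Eef2, the translocase, had 3160, 3080 and 3000 CPM in controls, 2590, 2720 and 2960 after 6 h, 3000, 2790 and 2720 after 12 h, 3250, 3690 and 3240 after 24 h, and 3190, 3730 and 3320 at 200 µM. It passed no test against control, with ratios of -0.16 to 0.15. Its inhibitory kinase gene Eef2k had 43.8, 62.7 and 53.9 CPM in controls, 58.2, 72.1 and 65.6 after 6 h, 53.7, 65 and 55.4 after 12 h, 47.7, 59.1 and 47.6 after 24 h, and 47.7, 59.2 and 51.6 at 200 µM, with overlap in every comparison. The 6 h ratio of Eef2k was 0.28, called only with the replicate block and without control library 2. Between doses its ratio of -0.30 was not called in the main fit. It was called there with library totals, the replicate block or the heart-transcript term. The fit of the 6 libraries and those without 6 h library 1 or 200 µM library 2 called it too.

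Genes of the elongation machinery are known for a run of pyrimidines at the start of their messages, through which mTOR signalling governs their translation. The 60 bases around the annotated start, 30 on each side, are shown for 4 elongation factor genes as examples, and genes of the mTOR pathway are described further on. They lie, in build GRCr8, at chr8:88225040-88225099 on the minus strand, chr9:72074061-72074120 on the plus strand, chr1:215289785-215289844 on the plus strand and chr7:9189209-9189268 on the minus strand. Capitals mark unbroken runs of at least 5 C or T.
Eef1a1: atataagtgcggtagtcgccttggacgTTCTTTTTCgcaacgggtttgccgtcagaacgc
Eef1b2: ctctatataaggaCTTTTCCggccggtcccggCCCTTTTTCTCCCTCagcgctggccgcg
Eef1g: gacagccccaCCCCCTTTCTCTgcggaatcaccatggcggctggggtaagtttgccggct
Eef2: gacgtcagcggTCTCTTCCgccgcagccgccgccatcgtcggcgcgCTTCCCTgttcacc
A run of at least 8 between -5 and 20 from the start lay in 13.7% of the members' windows, in 8.51% of all windows and in 7.86% of those of protein-coding genes. Of the 4 genes shown, Eef1g and Eef2 had no run of that length there. Their marked runs of at least 8 lie before the annotated start. Members with such a run between -5 and 20 were Eef1a1, Eef1akmt1, Eef1b2, Eif2a, Eif2s3, Eif3f and Eif3m. At 24 h 2 of these 7, Eef1akmt1 and Eef1b2, were called, both higher with TMM and both negative with library totals, beside 61% of all genes called at 24 h and 29.7% called higher.

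Among the methyltransferase genes, Eef2kmt, whose product methylates a lysine of eEF2, was lower under the matching labels. It had 8.19, 10.8 and 8.76 CPM at 24 h and 8.4, 8.04 and 9.57 CPM at 200 µM, against 14.7, 14.2 and 14.8 CPM in controls, with no overlap. Its levels after 6 h were 12.1, 12.9 and 14.8 CPM and after 12 h 12.8, 14.8 and 16.4 CPM. The log2 ratios were -0.64 ± 0.12 (adjusted p 0.000122) and -0.74 ± 0.12 (adjusted p 4.13e-05), the lowest of the set in both comparisons. Eef2kmt overlaps Alg1 in the annotation, so shared reads are possible. Eef1akmt1, which acts on eEF1A, had ratios of 0.34 ± 0.10 and 0.29 ± 0.11 (adjusted p 0.00779 and 0.023), which became -0.04 and -0.08 with library totals. These calls were also lost with the heart-transcript term, at 0.37 and 0.32 (adjusted p 0.133 and 0.196), and at 200 µM without control library 3 or library 1 or 2 of the label. Eef1akmt2 was not called.

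**Figure D5:**
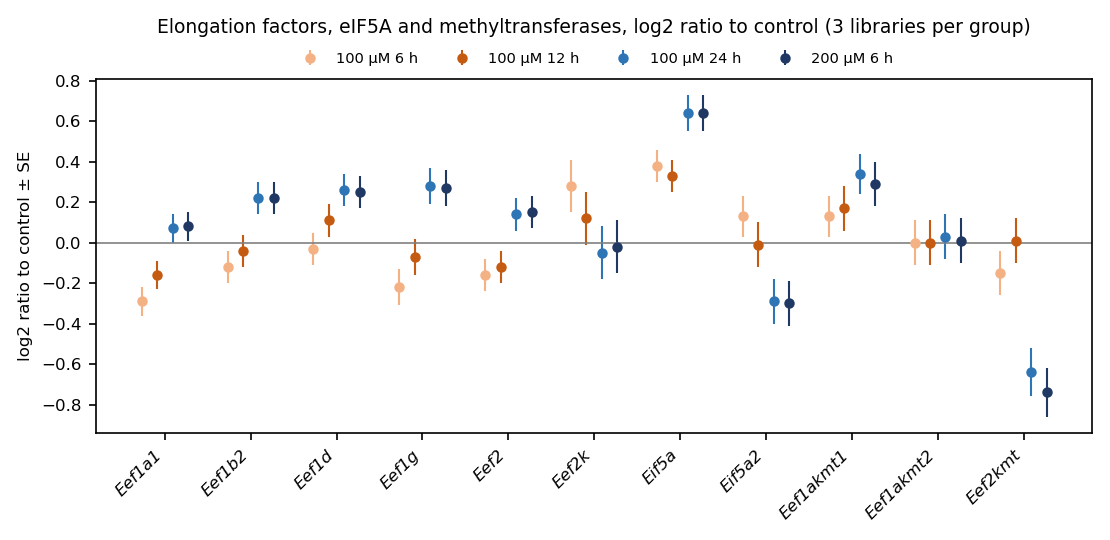
Log2 ratio to control ± SE (y axis, TMM scaling) of 11 genes of elongation, eIF5A and the methyltransferases in the 4 zinc groups, 3 libraries each. Eif5a is above 0 in all 4 groups and Eef2kmt is lowest under the 24 h and 200 µM labels, while the positive values of Eef1akmt1, Eef1b2, Eef1d and Eef1g there turn negative with library totals.

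Between zinc groups, little moved from 6 to 12 h at 100 µM. Of the members 2 were called, both higher, beside 0.974% of all genes called, 0.482% higher and 0.492% lower. Eif4ebp1 was higher at 12 h, with 163, 148 and 130 CPM against 94.1, 92.1 and 99.6 CPM at 6 h (log2 0.63 ± 0.11, adjusted p 0.00496), and this held under all 17 alternatives. Eif3c was higher by 0.29 ± 0.07 (adjusted p 0.0482), a call lost in 11 of 17 alternatives.

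The 200 µM label set against 100 µM at the same 6 h gave 21 members higher and 8 lower, beside 26.5% and 27.1% of all genes, which makes 29 of 54 beside 53.6%. Eif1 (log2 1.30 ± 0.07, adjusted p 7.33e-12) and Eif1ad (1.28 ± 0.09, adjusted p 1.1e-09) led, at 2.45-fold and 2.43-fold. Eif4ebp1 (0.71 ± 0.11, adjusted p 3.28e-05) and Eif2s2 (0.69 ± 0.13, adjusted p 0.000358) followed, and both had been lower in the 100 µM group than in controls. Eif4a2 was higher by 0.54 ± 0.15 (adjusted p 0.00591), while Eef2kmt, at -0.59 ± 0.13, and Eif2b5, at -0.50 ± 0.06, were the lowest (adjusted p 0.000687 and 1.06e-06). With library totals 5 members were higher, namely Eif1, Eif1ad, Eif2s2, Eif3g and Eif4ebp1, and 28 lower, as the median of all genes moved to -0.35.

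Set against 12 h, the 24 h label gave 16 members higher and 9 lower, beside 26.9% and 27.6% of all genes, which makes 25 of 54 beside 54.5%. Eif1 was higher by 1.24 ± 0.07 (adjusted p 1.28e-11) and Eif1ad by 0.94 ± 0.09 (adjusted p 6.12e-08). The lowest were Eef2kmt at -0.66 ± 0.12, Eif2b5 at -0.57 ± 0.06, Eif3a at -0.48 ± 0.08 and Eif2b1 at -0.47 ± 0.08. With library totals Eif1 and Eif1ad alone stayed called higher, 34 members were lower, and the median of all genes moved to -0.34.

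The 24 h label differed from the 200 µM label in no gene: edgeR called 0 of 10575, as did DESeq2 and limma-voom, and 69 genes but 0 members had an unadjusted p under 0.05. The smallest p of a member was 0.219, and apart from Eef1a2 at -0.37 the ratios were at most 0.11 in size.

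Several genes that regulate these factors had larger ratios than any factor gene under the matching labels. A list of 40 partners was used, covering kinases and phosphatase subunits of eIF2, the mTOR pathway, MNK kinases, poly(A)-binding proteins, the enzymes of hypusine and diphthamide, and release and recycling factors. Of these 34 were tested, Eif2ak2 did not pass the filter on low counts, and Impact, Rictor, Rheb, Larp1 and Dhx29 were not analysed here. At 6 h 2 were higher and 6 lower, beside 9.1% and 8.1% of all genes, and at 12 h 0 and 5, beside 3.36% and 2.97%. Under the 24 h label 12 were higher and 12 lower, beside 29.7% and 31.3%, and under the 200 µM label 12 and 11, beside 29.4% and 31.1%. With library totals the counts of partners were 1 and 6, 0 and 6, 4 and 23, and 4 and 22, and with the heart-transcript term 0 and 4, 0 and 0, 7 and 3, and 8 and 5.

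Sesn2, an mTOR inhibitor of the amino acid stress response, had 32.1, 29.3 and 26.9 CPM in controls, 14.4, 13.9 and 13.3 after 6 h, 22, 19.1 and 20.7 after 12 h, 319, 301 and 305 after 24 h, and 334, 311 and 324 under the 200 µM label. It fell at 6 h (log2 -1.08 ± 0.08, adjusted p 2.3e-08) and 12 h (-0.52 ± 0.08, adjusted p 0.00052) and rose at 24 h (3.39 ± 0.07, adjusted p 2.62e-17) and 200 µM (3.46 ± 0.07, adjusted p 2.05e-17). The 12 h call was lost with the heart-transcript term (-0.43, adjusted p 0.257). Ddit4, another inhibitor of mTOR signalling, followed the same course, with ratios of -0.48 ± 0.09, -0.45 ± 0.09, 3.55 ± 0.09 and 3.59 ± 0.09 in those 4 groups, all called. With the heart-transcript term the 6 h and 12 h calls of Ddit4 were lost (-0.36, adjusted p 0.0753, and -0.25, adjusted p 0.611). Ppp1r15a, the stress-induced subunit that directs a phosphatase to eIF2 alpha, had 2710, 2900 and 2560 CPM at 24 h and 2490, 2810 and 2730 CPM at 200 µM, against 301, 209 and 202 CPM in controls. Its ratios were 3.52 ± 0.12 and 3.50 ± 0.12 there, with -0.41 ± 0.11 at 6 h and at 12 h, all called, but the 6 h and 12 h ratios were -0.20 and -0.21 without control library 1 and then no longer passed (adjusted p 0.0998 and 0.181). With the heart-transcript term these 2 ratios stayed at -0.42 and -0.43, with neither passing (adjusted p 0.136 and 0.47).

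Atf4, the transcription factor whose translation rises when eIF2 is phosphorylated, had 514, 511 and 535 CPM after 6 h, against 947, 804 and 852 CPM in controls (log2 -0.74 ± 0.08, adjusted p 1.93e-06). It was also lower at 12 h, by 0.29 ± 0.08 (adjusted p 0.0287), and its ratios under the matching labels were 0.30 ± 0.08 and 0.27 ± 0.08 (adjusted p 0.00193 and 0.00545), which became -0.07 and -0.11 with library totals. With the heart-transcript term the ratios of Atf4 were -0.31 at 12 h and 0.28 and 0.24 under the matching labels, and none of the 3 passed (adjusted p 0.417, 0.128 and 0.189). Eif2ak3, the eIF2 kinase of the endoplasmic reticulum, rose by 0.94 ± 0.08 and 0.92 ± 0.08 there, and Gcn1, a protein that activates the eIF2 kinase encoded by Eif2ak4, fell by 0.77 ± 0.06 and 0.80 ± 0.06. Mknk1, a kinase of eIF4E, was lower in every zinc group, by 0.65 ± 0.08, 0.46 ± 0.08, 0.38 ± 0.08 and 0.39 ± 0.08, and the 12 h call was lost with the heart-transcript term (-0.56, adjusted p 0.149). Dhps, which begins the hypusine modification of eIF5A, was higher at 6 h by 0.25 ± 0.07 (adjusted p 0.0178) and under the matching labels by 0.44 ± 0.07 and 0.41 ± 0.07 (adjusted p 3.04e-05 and 6.17e-05), where library totals gave 0.06 and 0.04, neither called. Without control library 1 or 6 h library 1 or 3 the 6 h call of Dhps was lost, with ratios of 0.22 to 0.25, as it was with the heart-transcript term (0.31, adjusted p 0.0532). Without control library 1 or 12 h library 2 or 3 the 12 h call of Atf4 was lost, with ratios of -0.30 to -0.22.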

How the data were processed

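RNA sequencing of total RNA gave 15 libraries. The authors deposited a table of unnormalized whole-number counts, 1 row per gene. Per the submitters' processing notes, bcl2fastq, CASAVA 1.8, TopHat, DESeq and genome build rn4 were used, with no roles given. The strand setting, the annotation, the counting program and the handling of multiply matching reads were not given in the sources used here. Overlapping genes and genes with copies may therefore share reads. Gene identifiers were matched to RefSeq symbols of GRCr8, 16671 of 16832, and the 161 unmatched ones held 0.51% to 0.681% of counts and were kept.

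All libraries entered one edgeR 4.0.16 fit in R 4.3.3 (quasi-likelihood, robust, TMM, a model of group alone). After filterByExpr took out 6257 genes, 10575 were left; 2758 had been at 0 throughout. P-values were adjusted over these by Benjamini-Hochberg, with 0.05 as the threshold. CPM are TMM-scaled, and ± after a log2 ratio is its standard error. On simulated counts for 6 h against control the fit recovered 68.7%, 98.5% and 100% of genes set to change by 0.5, 1 and 2 (log2), with 5.32% false calls. Only 67, 67 and 66 of 10575 genes were set to change, up and down alike and in the 6 h group alone. The simulation therefore does not bear on the choice of scaling.

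Alternatives were DESeq2 1.42.0, its size factors in edgeR, library totals, no filter, at least 50 counts in 3 libraries, limma-voom (limma 3.58.1), a replicate block, a heart-transcript term (6 genes over 10 CPM summed), fits of the 6 libraries compared or without a label, and each library left out. For the partner list they were chosen after seeing the data. Members, lists and tests were chosen with earlier results of these data known. Values in every library are given for a fixed set of members, for the 8 called members with the largest ratios and a mean of at least 20 counts in each comparison, and for some partners with the smallest adjusted p. Levels were not compared between genes, since transcript lengths were not used here.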

Additional observations from a re-analysis of the deposited data

Results flagged for a closer look

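For 17 members the difference of 24 h from 12 h passed edgeR's test, and their ratios to control had opposite signs at these times. None of the ratios at 12 h was called alone, and some were close to 0, at 0.01 for Eef2kmt and Eif3a and -0.01 for Eif4h. At 24 h the ratios to control of Eef1a1, Eef2, Eif3j, Eif4a2, Eif4e3 and Eif4enif1 were not called either. The signs alone are therefore not read as reversals. The libraries of the 24 h label match those of the 200 µM label, and whether the difference is one of time was not tested. With TMM scaling, the higher ones at 24 h were Eif1 by 1.24 on the log2 scale, Eif1ad by 0.94, Eif4a2 by 0.37, Eif3h by 0.36, Eef1g by 0.35, Eef1b2 and Eef2 by 0.26 each, Eif3j by 0.25, Eef1a1 by 0.23, Eif4enif1 by 0.22 and Eif4h by 0.19. The lower ones had differences of -0.66 for Eef2kmt, -0.57 for Eif2b5, -0.48 for Eif3a, -0.40 for Eif4e3, -0.35 for Eif5b and -0.26 for Eif4ebp2. With library totals Eif1 and Eif1ad alone of the higher ones were still called higher, while all of the lower ones were still called lower.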

How the results depend on the processing

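Of 1953 values of the 121 called member ratios under the alternatives, 1749 kept direction and call, 166 lost the call and 38 changed sign, all 38 with library totals; 50 ratios kept both under every alternative. At 24 h library totals gave -0.04 for Eef1akmt1, -0.15 for Eef1b2, -0.12 for Eef1d, -0.09 for Eef1g, -0.15 for Eif3b, -0.14 for Eif3d, -0.08 for Eif3h, -0.02 for Eif3i, -0.07 for Eif3k and -0.20 for Eif4h. At 200 µM they gave -0.08, -0.16, -0.13, -0.10, -0.13, -0.15, -0.10, 0.00, -0.07 and -0.20 for the same genes. Between doses they gave -0.01 for Eef1b2, -0.06 for Eef1d, -0.03 for Eef2, -0.14 for Eif3d, -0.04 for Eif3k, -0.06 for Eif4e2, -0.09 for Eif4enif1, -0.13 for Eif4h and -0.08 for Eif5a. For 24 h against 12 h they gave -0.10 for Eef1a1, -0.07 for Eef1b2 and Eef2, -0.03 for Eif3i, -0.08 for Eif3j, -0.06 for Eif3k, -0.11 for Eif4enif1, -0.14 for Eif4h and -0.02 for Eif5a. Of these values, edgeR with library totals called lower Eif3b, Eif3d and Eif4h at 24 h and Eef1b2, Eif3d and Eif4h at 200 µM. It also called lower Eif3d and Eif4h between doses and Eif4h for 24 h against 12 h. Among partners Atf4 became -0.07 at 24 h and -0.11 at 200 µM. The shift follows from the scaling itself.

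Counts of members called that moved by over 1.5 times were as follows. For 6 h against control the replicate block gave 19. For 12 h against control library totals and DESeq2 gave 7, the replicate block 8, the heart-transcript term 0, the fit without the 200 µM libraries 2 and the fit of 6 libraries 1. Under the 24 h and 200 µM labels library totals gave 42 and the heart-transcript term 13. For 12 h against 6 h DESeq2 size factors, no filter, the heart-transcript term and the fits without either matching label (24 h or 200 µM) gave 1 each, and the replicate block and the 6-library fit 4. For partners the heart-transcript term gave 4, 0, 10 and 13 at 6, 12 and 24 h and 200 µM. Beyond the scaling, the cause was not tested.

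Leaving out a library gave 8 to 15 members at 6 h, 0 to 5 at 12 h (0 without control 1 or 12 h library 1), 22 to 28 at 24 h, 22 to 26 at 200 µM, 1 for 12 h against 6 h, 27 to 30 between doses, 18 to 25 for 24 h against 12 h, 0 between the 24 h and 200 µM labels and 30 to 35 in the 5-group test, beside 32 with all libraries. Partner counts were 5 to 10, 3 to 6, 20 to 24 and 18 to 22. Matching synonyms added 5 genes and moved no count by that much.

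The replicate block ended no member call and gave 27, 30, 34 and 28 at 24 h, 200 µM, between doses and for 24 h against 12 h. Same-numbered libraries correlated at 0.107, 0.24 and 0.079 for 24 h against control, and no comparison had all 3 over 0.1, so the numbers were not read as pairs, though all 6 libraries between doses correlated best with their own number. Libraries numbered 2 correlated most of the 3, at 0.19 to 0.572, in every comparison but that between doses (0.075). A spread shared by these libraries was not tested beyond the block. Depth limits Eef1a2 most, with 8 counts in one library.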
